A study of Arabidopsis thaliana with 16 samples.

Results

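GRP7 (AT2G21660, also called CCR2) and GRP8 (AT4G39260, also called CCR1) are the closely related pair of small glycine-rich RNA-binding proteins of Arabidopsis. They are 2 of the 25444 genes listed and were chosen by their levels over genotype, hour and replicate in these same libraries. Their levels and fold changes are therefore a description and carry no test. RNA was sequenced from inflorescences with young leaves of wild-type (WT) Columbia-0 plants and of zed1-D, a dominant mutant of the pseudokinase gene ZED1, in the same background. All plants grew under 16 h of light and 8 h of darkness at 18 °C until the stem measured 0.5 to 1.0 cm, and were then moved to 28 °C. The 8 groups are WT at 0, 3, 12 and 48 h and zed1-D at 0, 3, 12 and 48 h after the move, with 2 libraries each, replicate 1 (R1) and replicate 2 (R2). The descriptions of the samples call the plants seedlings, whereas the tissue field and the protocols give bolted inflorescences. The labels do not say whether R1 and R2 were separate plants or pools, so p-values measure the spread between these libraries, which may be technical. No group was kept at 18 °C after 0 h and the labels give no clock time of sampling, so for 3 and 12 h the time at 28 °C and the time of day cannot be told apart. At 48 h the time at 28 °C and the added age of the plants cannot be told apart either.

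GRP7 and GRP8 each hold an RNA recognition motif followed by a glycine-rich stretch. Their transcripts cycle with the circadian clock and peak late in the day. GRP7 protein binds its own transcript and that of GRP8 and favours spliced forms that carry an early stop codon and are degraded, which closes a negative feedback loop. The morning clock factors CCA1 and LHY bind the evening element, a promoter sequence found in many genes that peak in the evening. GRP7 transcript also accumulates in the cold, and the protein has been tied to flowering time and to defence against Pseudomonas syringae, whose effector HopU1 modifies it.

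Both promoters carry the evening element directly before the annotated gene start, and the windows are printed because clock factors known to bind that sequence are among the genes measured here. Each window holds the 250 bases before the start, 5′ to 3′ on the gene's strand, from the RefSeq annotation of TAIR10.1. The start is the outermost annotated end of the gene, and distances depend on it. The 5′ untranslated region is 241 bases in the longest GRP7 transcript and 77 in the other. In GRP8 it is 258 bases in the longest transcript and 59 to 121 in the others. Capitals mark every match to the evening element AAAATATCT on either strand (AGATATTTT where it lies on the other one).
GRP7, chr2:9266558-9266807, minus strand: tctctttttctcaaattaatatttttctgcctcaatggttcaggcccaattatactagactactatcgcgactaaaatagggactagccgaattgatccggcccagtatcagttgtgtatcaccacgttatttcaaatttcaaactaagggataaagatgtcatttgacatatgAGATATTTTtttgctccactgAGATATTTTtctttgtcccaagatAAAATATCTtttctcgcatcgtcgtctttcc
GRP8, chr4:18275217-18275466, minus strand: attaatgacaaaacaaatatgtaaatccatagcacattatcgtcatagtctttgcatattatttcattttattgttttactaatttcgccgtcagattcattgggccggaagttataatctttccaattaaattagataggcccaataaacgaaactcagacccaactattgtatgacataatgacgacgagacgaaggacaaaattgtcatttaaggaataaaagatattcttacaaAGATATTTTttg

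GRP7 had 3 matches, at bases 76 to 68, 55 to 47 and 31 to 23 before the start. GRP8 had 1 match, at bases 12 to 4 before the start. Of 27443 protein-coding windows of that length, 2.36% held the evening element. The CCA1-binding sequence AAAAATCT (6.69% of windows), the G-box CACGTG (6.49%), the cold-response core CCGAC (12%) and the TATA box TATAAA (47.3%) had no match in either window. The W-box core TTGAC (44.9%) and the ACGT core (44.1%) each matched once in GRP7 and not in GRP8. All motifs were searched on both strands, matches were not required to be apart, and a match describes letters only.

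GRP7 lies on chromosome 2 at 9265084-9266557 and GRP8 on chromosome 4 at 18273829-18275216, both on the minus strand, and 0 annotated genes overlap either. In RefSeq the longest transcript of each has 2 exons around an intron of 309 bases in GRP7 and 283 bases in GRP8, with coding sequences of 531 and 510 bases. The coding sequences were identical at 396 of 504 aligned bases (78.6%). The longest stretch shared by the mRNAs was 39 bases, at coding bases 135 to 173 of GRP7, and is printed because the deposited counts hold uniquely mapped reads and a read lying within it would fit both genes.
Shared by GRP7 and GRP8: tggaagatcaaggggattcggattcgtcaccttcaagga
Reads are counted per gene, so the productive and the early-stop forms of each transcript are in 1 value and were not separated. In whole tissue, fewer cells of a type and less RNA per cell cannot be told apart.

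Libraries held 4.74 M to 5.86 M counted reads in R1 and 10.35 M to 11.39 M in R2. GRP7 was read 897 to 15768 times per library and GRP8 86 to 2128 times. Levels below are counts scaled to library size with TMM factors (CPM), and 19312 genes passed the expression filter and were fitted together. All 6 floral organ markers and all 5 leaf photosynthesis markers were detected in every group, detection being any read in the group. So were all tapetum and pollen markers and 3 or 4 of 4 root markers, so that detection does not tell which tissue was taken. The meristem marker CLV3 was at 0 in 5 of 8 groups.

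GRP7 was among the most abundant transcripts at 18 °C, stood far lower 3 h after the move to 28 °C, and lay between those levels at 12 and 48 h. In WT its level was 1550 (R1) and 1304 (R2) CPM at 0 h, 206 and 167 CPM at 3 h, 821 and 643 CPM at 12 h, and 1151 and 1016 CPM at 48 h. In zed1-D it was 1593 and 1374 CPM at 0 h, 205 and 173 CPM at 3 h, 735 and 623 CPM at 12 h, and 798 and 800 CPM at 48 h. The 4 libraries at 3 h were the lowest of the 16, and no library at a later time reached the level of either 0 h library of its genotype. By RPKM, counts per kilobase of transcript scaled to library size, GRP7 ranked 32 to 49 among all genes at 0 h, 438 to 536 at 3 h, 81 to 91 at 12 h and 43 to 68 at 48 h.

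GRP8 followed a similar course at a far lower level, and overlapped its 0 h range at 48 h. In WT it stood at 88.6 (R1) and 118 (R2) CPM at 0 h, 19.7 and 27.9 CPM at 3 h, 54.8 and 62.7 CPM at 12 h, and 105 and 134 CPM at 48 h. In zed1-D it stood at 97.8 and 125 CPM at 0 h, 31.9 and 29 CPM at 3 h, 53.4 and 67.9 CPM at 12 h, and 120 and 188 CPM at 48 h. The 4 libraries at 3 h were again the lowest, and the 48 h libraries overlapped those at 0 h in both genotypes. Counting error, taken as 1 over the square root of the count, was at most 3.34% for GRP7 and at most 10.8% for GRP8 in any library.

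**Figure D1:**
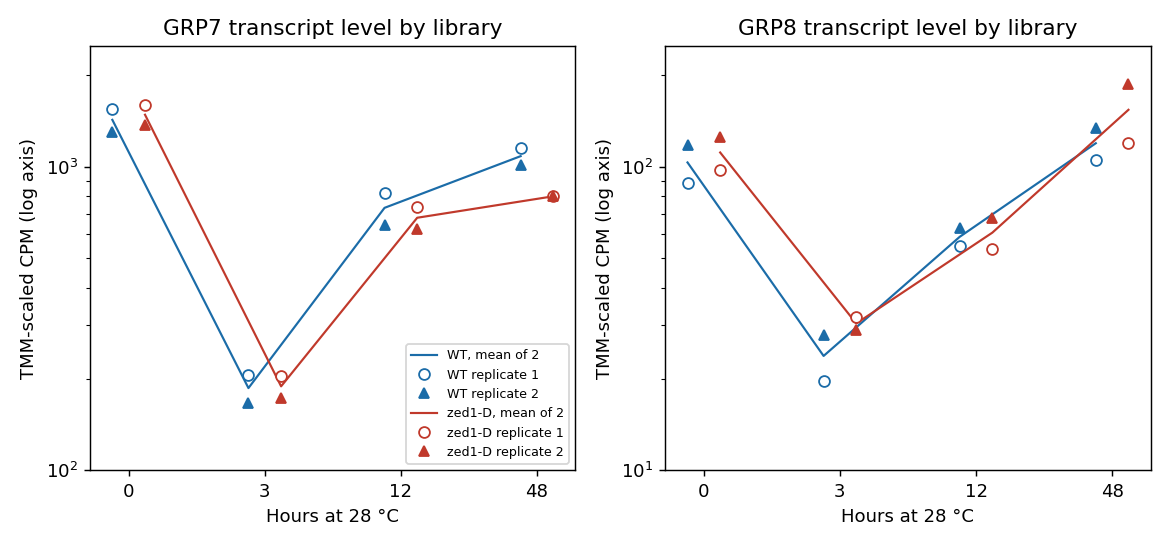
Level of GRP7 (left) and GRP8 (right) in each of the 16 libraries, in TMM-scaled CPM on a log axis, against hours at 28 °C on an evenly spaced axis; circles are replicate 1, triangles replicate 2, and lines join the means of 2. Both genes are lowest at 3 h; at 48 h GRP7 is at 798 and 800 CPM in zed1-D against 1151 and 1016 CPM in WT, while GRP8 overlaps the range of 0 h.

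Ordered by mean, GRP7 was lowest in WT at 3 h (187 ± 27.3 CPM, SD, n = 2) and zed1-D at 3 h (189 ± 22.5 CPM), whose libraries overlapped. Next came zed1-D at 12 h (679 ± 79.7 CPM), WT at 12 h (732 ± 126 CPM) and zed1-D at 48 h (799 ± 1.24 CPM), each overlapping its neighbour. WT at 48 h (1084 ± 95.7 CPM) overlapped neither neighbour. WT and zed1-D at 0 h (1427 ± 174 and 1483 ± 155 CPM) were highest and overlapped each other.

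The order of GRP8 differed from that of GRP7 at the top. GRP8 was lowest in WT at 3 h (23.8 ± 5.74 CPM) and zed1-D at 3 h (30.4 ± 2.07 CPM), which did not overlap. WT and zed1-D at 12 h (58.7 ± 5.57 and 60.7 ± 10.3 CPM) overlapped each other and no other group. WT at 0 h (103 ± 20.6 CPM), zed1-D at 0 h (111 ± 19.1 CPM), WT at 48 h (119 ± 20.3 CPM) and zed1-D at 48 h (154 ± 48.2 CPM) formed a run in which each overlapped the next.

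The levels of the pair can be set beside each other per length, using the deposited RPKM values. GRP8 stood at 5.32% (R1) and 8.4% (R2) of the GRP7 RPKM in WT at 0 h, 8.93% and 15.5% after 3 h, 6.21% and 9.07% after 12 h, and 8.5% and 12.3% after 48 h. In zed1-D the share was 5.72% in R1 and 8.46% in R2 at the start, 14.5% and 15.6% after 3 h, 6.76% and 10.2% after 12 h, and 14% and 21.9% after 48 h. GRP7 was thus the more abundant transcript per length in all 16 libraries. The share was above both 0 h libraries of the same genotype in all libraries at 3 h and 48 h and overlapped the 0 h range at 12 h.

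**Figure D2:**
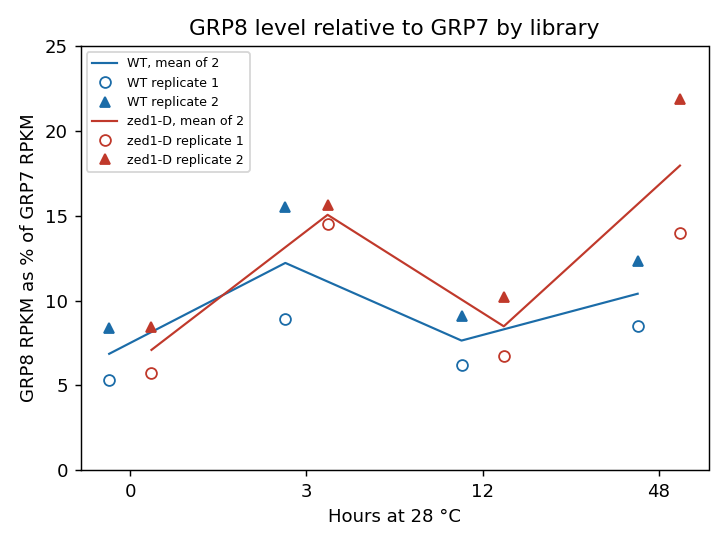
GRP8 RPKM as a percentage of GRP7 RPKM in each library, against hours at 28 °C on an evenly spaced axis; circles are replicate 1, triangles replicate 2, and lines join the means of 2. The share lies between 5.32% and 8.46% at 0 h and reaches 14% and 21.9% in zed1-D at 48 h.

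Relative to 0 h, the first 3 h at 28 °C brought the largest change in either gene. GRP7 was 7.65-fold lower in WT (log2 -2.94; -2.91 in R1 and -2.96 in R2) and 7.86-fold lower in zed1-D (log2 -2.98; -2.96 and -2.99). Only 50 of the 19312 fitted genes had a more negative log2 change in WT and 7 in zed1-D. GRP8 was 4.30-fold lower in WT (log2 -2.10; -2.17 and -2.08) and 3.67-fold lower in zed1-D (log2 -1.88; -1.62 and -2.11), with 126 and 41 genes more negative. Libraries at 3 h lay wholly below those at 0 h for both genes, as they did for 17.1% of fitted genes in WT and 17.2% in zed1-D. The comparisons with 0 h share their 0 h libraries within a genotype.

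**Figure D3:**
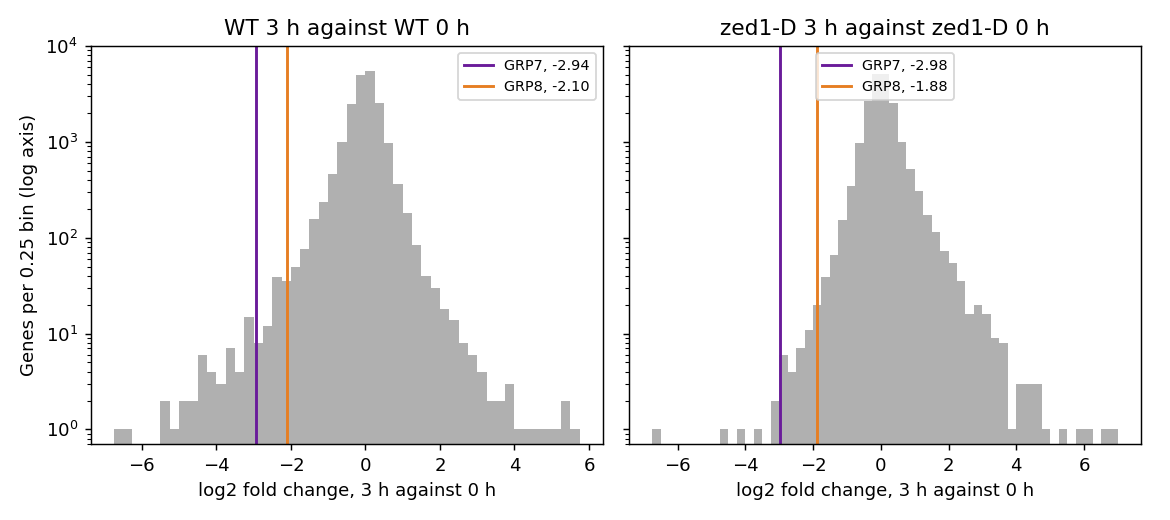
Distribution of log2 fold change, 3 h against 0 h, over the fitted genes in WT (left) and zed1-D (right), in bins of 0.25 with the number of genes on a log axis. Vertical lines mark GRP7 at -2.94 and -2.98 and GRP8 at -2.10 and -1.88.

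At 12 h both genes remained below 0 h. GRP7 was 1.95-fold lower in WT (log2 -0.96) and 2.18-fold lower in zed1-D (log2 -1.13), and GRP8 was 1.76-fold lower in WT (log2 -0.81) and 1.83-fold lower in zed1-D (log2 -0.88). None of these libraries overlapped with 0 h, which held in the same direction for 16.2% of fitted genes in WT and 21.5% in zed1-D. By 48 h the pair had parted. GRP7 was 1.32-fold lower than at 0 h in WT (log2 -0.40) and 1.86-fold lower in zed1-D (log2 -0.89), without overlap (19.6% and 27.7% of fitted genes), whereas GRP8 was at log2 0.21 in WT and 0.47 in zed1-D, with overlap.

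Between the genotypes GRP7 stood close to log2 0 until 12 h and apart at 48 h. The log2 difference of zed1-D from WT was 0.06 at 0 h, 0.02 at 3 h and -0.11 at 12 h, all with overlapping libraries. At 48 h GRP7 was 1.36-fold lower in zed1-D (log2 -0.44; -0.53 in R1 and -0.34 in R2), and the libraries did not overlap, as for 25.7% of fitted genes in that direction. For GRP8 the log2 difference was 0.11 at 0 h, 0.05 at 12 h and 0.37 at 48 h, with overlap. At 3 h GRP8 was higher in zed1-D without overlap (log2 0.34; 17.5% of fitted genes in that direction), but the difference was 0.69 in R1 and 0.06 in R2, and it was 0.11 without WT 3 h R1 and 0.66 without WT 3 h R2.

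The replicate sets differed in opposite directions for the pair. GRP7 was higher in R2 than in R1 in 1 of 8 groups, with log2 R2 minus R1 from -0.35 to 0.00 (median -0.24). GRP8 was higher in R2 in 7 of 8 groups, from -0.14 to 0.65 (median 0.35). R2 was sequenced more deeply in every group, and in these data the replicate number and depth cannot be told apart.

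Tissue markers were compared over the same libraries. The 5 leaf photosynthesis markers summed to 57462 (R1) and 38094 (R2) CPM in WT at 0 h and 55966 and 41821 CPM at 3 h, and the 3 h libraries of WT lay inside the 0 h range. In zed1-D the sum was 49980 and 36340 CPM at 0 h and 40502 and 33017 CPM at 3 h, smaller within each replicate number and with R2 below the 0 h range. In zed1-D at 48 h the sum was 28844 and 26650 CPM, against 41462 and 27596 CPM in WT, smaller within each replicate number but with overlapping libraries, and GRP7 was lower there. The leaf sum was larger in R1 in all 8 groups. The floral organ markers summed to 54.8 and 65.6 CPM in WT at 0 h and 36.3 and 48.1 CPM at 3 h, and to 40.1 and 46.7 CPM in zed1-D at 0 h and 49.2 and 56.2 CPM at 3 h. Tapetum markers summed to 5.67 to 15.3 CPM, pollen markers to 12.9 to 46.4 CPM, meristem markers to 17.1 to 64.7 CPM and root markers, with TIP2;3 at 0 in 5 groups, to 37.6 to 104 CPM. The part of tissue composition in the differences was not tested.

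The likeness of other genes to the pair was ranked by Pearson r of log2 CPM over the 8 group means, among the 13194 genes whose log2 CPM averaged 3 or more. GRP7 and GRP8 had r = 0.90 with each other, which placed GRP8 27th for GRP7 and GRP7 47th for GRP8. Each r rests on 8 points, and the genes named below were picked as the highest of those ranked, so r is a description. The 5 genes most like GRP7 were AT1G01500 (0.981), AT4G34950 (0.966), AT2G33830 (0.952), AT3G58570 (0.952) and the shaggy-like kinase gene SKdZeta (0.945). AT2G33830 went from 129 CPM in WT at 0 h to 27.1 CPM at 3 h, 66.7 CPM at 12 h and 75.4 CPM at 48 h, and in zed1-D from 126 to 21.3, 73.7 and 47.2 CPM. SKdZeta ranged from 97 to 114 CPM only and in zed1-D stood at 113 CPM at both 0 and 12 h, and its r with GRP7 over the 16 single libraries was 0.377. The 5 most like GRP8 were the RING-type ubiquitin ligase gene RHC2A (0.996), FP6 (0.980), AT1G21670 (0.972), AT3G18535 (0.965) and AT1G30890 (0.960), with RHC2A between 34.4 and 49.2 CPM. None of these 10 genes had an evening element in its 250-base window, which is near the 2.36% of all protein-coding windows that held it. Over the 16 single libraries 3 of the 5 remained among the first 5 for GRP7 and 0 of 5 for GRP8.

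For other genes, differences were tested with the edgeR quasi-likelihood model and Benjamini-Hochberg adjustment over all fitted genes. Same-numbered libraries deviated together. The model that takes the number as a block is therefore quoted, as blocked, wherever it alters a call or shifts a count more than 1.5 times. Blocked, far more of all fitted genes passed: 2.27%, 17.1%, 35.1% and 45.6% between genotypes at 0, 3, 12 and 48 h, 20.3%, 21.3% and 29.4% in WT at 3, 12 and 48 h against 0 h, and 23.9%, 43.9% and 52.7% in zed1-D.

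In the model without the block, few of the other genes of the glycine-rich RNA-binding family passed in any comparison. Blocked, up to 8 of 11 passed in a single comparison. With 11 fitted genes, a count of 0 or 1 is not read as a trait of the family. The list holds mitochondrial relatives (GR-RBP2 to GR-RBP6), zinc-finger forms (RZ-1) and cold-shock-domain proteins (CSP), and 11 of 12 were fitted, RZ-1A being too low at 0.258 to 0.892 CPM. Between genotypes 0 of 11 passed at any time, where 0.0466% of all fitted genes passed at 0 h, 3.06% at 3 h, 9.69% at 12 h and 14.6% at 48 h. At 48 h the median log2 difference was 0.34 against -0.03 over all genes, 3 had an unadjusted p under 0.05, DESeq2 called 1 and blocked 8 were higher, where blocked 45.6% of all fitted genes passed in either direction. GR-RBP2, which supports growth in the cold, stood at 117 and 173 CPM in zed1-D against 86.7 and 94.1 CPM in WT at 48 h (log2 0.68 ± 0.22 SE, adjusted p = 0.065, blocked 8.7e-08, DESeq2 0.042). At the earlier times edgeR gave 0 at an unadjusted p under 0.05, DESeq2 called 0, and blocked 0, 0 and 2 passed, higher.

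Over time, 1 family member passed, GR-RBP4, lower in zed1-D at 12 h (16.1 ± 3.68 against 32.9 ± 7.58 CPM, log2 -1.03 ± 0.31 SE, adjusted p = 0.045), where 14.8% of fitted genes passed. Without zed1-D 12 h R2 its adjusted p was 0.24, and each of the 4 omissions ended the call. Blocked, 4 members were lower there. In the other comparisons 0 passed, against 1.78%, 1.51% and 2.97% of fitted genes in WT at 3, 12 and 48 h and 2.72% and 20% in zed1-D at 3 and 48 h. There 1 or 2 members had an unadjusted p under 0.05, DESeq2 called 1 at 3 h in zed1-D and 0 elsewhere, and blocked 4, 4 and 3 were lower in WT and 5 in zed1-D at 3 h. At 48 h blocked 1 was higher in WT, and 5 were higher and 1 lower in zed1-D. Median log2 changes were -0.25 and -0.31 at 3 h in WT and zed1-D, against 0.00 and 0.01 over all genes, next to -2.94 and -2.98 for GRP7.

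**Figure D4:**
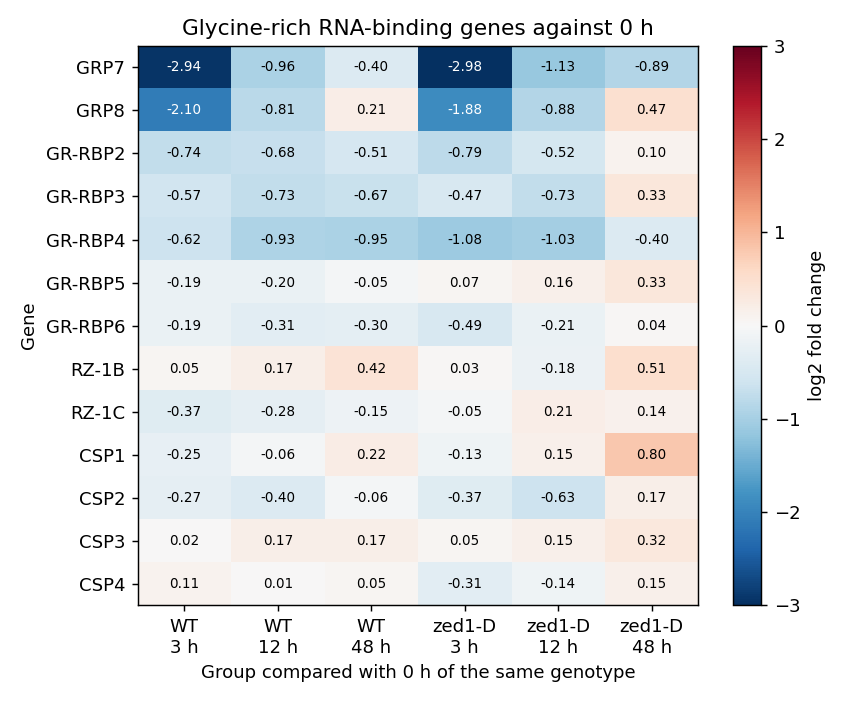
Log2 fold change against 0 h of the same genotype for GRP7, GRP8 and the 11 fitted relatives; colour and printed value give the same quantity, blue for lower and red for higher. GRP7 at 3 h (-2.94 and -2.98) and GRP8 (-2.10 and -1.88) stand outside the relatives, whose lowest value is -1.08.

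Genes tied to GRP7 by earlier work were read beside it: 12 were fitted, among them genes of flowering (FLC, FT, SOC1), immune receptors (FLS2, EFR), PR1, modifiers and import of the protein (PRMT5, FER, TRN1) and decay of early-stop transcripts (UPF1, UPF3). In zed1-D against WT 0 passed at 0 h (1 at an unadjusted p under 0.05, DESeq2 0, blocked 1 higher), 2 were higher and 1 lower at 3 h, 1 higher and 1 lower at 12 h, and 2 higher and 1 lower at 48 h. Blocked, 4 were higher and 1 lower at both 3 and 12 h, and 4 higher and 2 lower at 48 h. The shares of all fitted genes at 3, 12 and 48 h were 3.06%, 9.69% and 14.6%, and blocked 17.1%, 35.1% and 45.6%, so that the blocked 6 of 12 at 48 h is near the share of all genes. The median differences were 0.03, 0.20, 0.10 and 0.10, against 0.00, -0.01, 0.00 and -0.03 over all fitted genes.

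EFR, the receptor for bacterial elongation factor whose transcript GRP7 binds, passed in each of the 3 comparisons at 28 °C. It stood at 9.93 and 9.53 CPM in zed1-D at 3 h against 4.13 and 4.01 CPM in WT (log2 1.26 ± 0.18 SE, adjusted p = 0.0023), and was higher at 12 h (log2 1.13 ± 0.17, adjusted p = 0.0014) and 48 h (0.63 ± 0.16, adjusted p = 0.027, DESeq2 0.072, without zed1-D 48 h R2 0.16). GRP7 differed between the genotypes by log2 0.02, -0.11 and -0.44 at those times. FLS2, the flagellin receptor whose transcript GRP7 also binds, did not pass in a genotype comparison (log2 0.54 at 3 h, adjusted p = 0.85, blocked 0.0028; 0.69 at 48 h, adjusted p = 0.31, blocked 0.0014).

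FLC, the flowering repressor whose level GRP7 is known to lower, stood at 3.05 and 3.33 CPM in zed1-D at 3 h against 10.1 and 6.62 CPM in WT. It passed lower at 3 h (log2 -1.34 ± 0.32 SE, adjusted p = 0.048, without WT 3 h R1 0.28), 12 h (-1.53 ± 0.32, adjusted p = 0.01, without WT 12 h R2 0.18) and 48 h (-1.13 ± 0.32, adjusted p = 0.037, without zed1-D 48 h R2 0.18). The FLC libraries held 11 to 111 reads each. PR1, a salicylic-acid marker that rises in plants with more GRP7, was higher in zed1-D at 3 h (165 ± 43.1 against 10.2 ± 4.1 CPM, log2 3.97 ± 0.44 SE, adjusted p = 3e-04) and 48 h (3.39 ± 0.42, adjusted p = 0.00029) and did not pass at 12 h (1.23 ± 0.38, adjusted p = 0.072, blocked 7.7e-16). In WT 3 h after the move, PR1 (log2 -2.84 ± 0.42, adjusted p = 0.0058, without WT 3 h R1 0.066) and EFR (-1.05 ± 0.18, adjusted p = 0.016, without WT 3 h R2 0.15) were lower than at 0 h (blocked 5 of the 12 were lower and 1 higher). In zed1-D both were higher than at 0 h at 12 h (EFR 1.01 ± 0.17, adjusted p = 0.0022; PR1 1.42 ± 0.38, adjusted p = 0.029, without zed1-D 0 h R1 0.22) and 48 h (EFR 1.27 ± 0.17, adjusted p = 0.00047; PR1 1.69 ± 0.39, adjusted p = 0.011, without zed1-D 48 h R2 0.094). In WT at 12 and 48 h and in zed1-D at 3 h 0 of 12 passed (2, 4 and 1 at an unadjusted p under 0.05, DESeq2 0, 1 and 0, blocked 3, 4 and 1 higher and 2, 3 and 1 lower). Of all fitted genes 1.78%, 1.51% and 2.97% passed in WT at 3, 12 and 48 h, and 2.72%, 14.8% and 20% in zed1-D. Blocked, these shares were 20.3%, 21.3% and 29.4%, and 23.9%, 43.9% and 52.7%. The 2 of 12 that passed in zed1-D at both 12 and 48 h are near the 14.8% and 20%. Blocked, 4 of the 12 were higher there at both times, with 1 lower at 12 h and 2 at 48 h. The decay genes UPF1 and UPF3 and the import receptor gene TRN1 did not pass in any comparison (TRN1 blocked 0.032 at 3 h and 0.026 at 12 h between genotypes), with mean levels of 132 to 149, 35.8 to 42.9 and 70 to 95.4 CPM.

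Serine/arginine-rich (SR) splicing factors, the other splicing regulators read beside the pair, held 18 fitted genes. Between genotypes 1 passed, at 48 h, where 14.6% of all fitted genes passed. Against 0 h, 6 passed in at least 1 comparison, and the share of all fitted genes doing so is not given. In zed1-D 4 of 18 passed at 12 h and 4 at 48 h, near the 14.8% and 20% of all fitted genes. RS40 fell at 3 h in WT, when GRP7 was lowest, from 67.9 (R1) and 70.5 (R2) CPM to 35.8 and 33.6 CPM (log2 -1.0 ± 0.13 SE, adjusted p = 0.0036), and in zed1-D (-0.90 ± 0.13, adjusted p = 0.005, without zed1-D 3 h R2 0.075). SCL33 rose in zed1-D at 3 h (1.08 ± 0.25, adjusted p = 0.043, without zed1-D 0 h R2 0.33), 12 h (1.49 ± 0.25, adjusted p = 0.0019) and 48 h (1.39 ± 0.25, adjusted p = 0.0025), and in WT at 12 h (1.16 ± 0.25, adjusted p = 0.045, without WT 0 h R2 0.32). RS31 was the member higher in zed1-D than WT at 48 h (0.61 ± 0.14, adjusted p = 0.015, without zed1-D 48 h R1 0.11). Blocked, 8 passed in at least 1 comparison between genotypes and 16 over time, where single comparisons reached 45.6% and 52.7% of all fitted genes. The median change at 3 h was 0.07 in WT and 0.06 in zed1-D.

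At 3 h, the time of the lowest GRP7 and GRP8 levels, 7 clock genes were higher and 1 lower of 23 fitted in WT, and 7 higher and 0 lower in zed1-D, where 1.78% and 2.72% of all fitted genes passed. Blocked, 12 were higher and 3 lower, and 11 higher and 2 lower (20.3% and 23.9% of all genes), and the medians were 0.40 and 0.48. LHY, a morning MYB factor known to bind the evening element, went from 0.186 (R1) and 0.856 (R2) CPM to 4.82 and 4.94 CPM in WT (log2 2.97 ± 0.43 SE, adjusted p = 0.0053, without WT 3 h R2 0.052) and from 0.209 and 0.61 CPM to 4.58 and 5.94 CPM in zed1-D (3.44 ± 0.44, adjusted p = 0.0025). Its partner CCA1 rose in WT (2.90 ± 0.44, adjusted p = 0.0062, without WT 0 h R2 0.11) and zed1-D (3.24 ± 0.44, adjusted p = 0.0034). RVE8, a related MYB factor that activates evening genes, rose in WT (3.72 ± 0.44, adjusted p = 0.0016) and zed1-D (4.06 ± 0.46, adjusted p = 0.0015). The 0 h libraries held 1 to 9 reads of LHY, 1 to 6 of CCA1 and 2 to 10 of RVE8, so these folds rest on few reads.

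At 12 h CCA1 and LHY stood at 0.447 to 1.45 CPM by group mean and did not pass against 0 h (LHY in zed1-D adjusted p = 0.095, blocked 0.048), while GRP7 and GRP8 stood above their 3 h level. Of the clock list 2 were higher in WT and 3 in zed1-D at 12 h (1.51% and 14.8% of all fitted genes), and blocked 11 were higher in WT, and 10 higher and 2 lower in zed1-D (21.3% and 43.9%). At 48 h LHY stood at 10.4 and 8.33 CPM in WT (against 0 h log2 3.90 ± 0.41, adjusted p = 0.00061), above its 3 h level, while GRP7 stood at 1151 and 1016 CPM. In zed1-D at 48 h LHY reached 40.2 and 35.3 CPM (6.25 ± 0.41, adjusted p = 4.8e-06). In WT 7 clock genes were higher and 1 lower than at 0 h, and in zed1-D 11 higher and 1 lower (2.97% and 20% of all fitted genes). Blocked, 13 were higher and 2 lower, and 16 higher and 3 lower (29.4% and 52.7%).

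Between genotypes, members of the clock list passed at 48 h, with 5 higher and 2 lower in zed1-D (14.6% of all fitted genes; blocked 5 higher and 5 lower, near the 45.6% of all genes). At that time GRP7 was 1.36-fold lower in zed1-D. LHY was higher (log2 2.02 ± 0.29 SE, adjusted p = 0.00091), as were RVE1 (1.83 ± 0.21, adjusted p = 2e-04) and CCA1 (1.66 ± 0.32, adjusted p = 0.0049, without WT 48 h R2 0.052), and FKF1, an evening-phased F-box gene, was lower (-1.05 ± 0.19, adjusted p = 0.0036). At 0, 3 and 12 h 0 passed (1, 0 and 2 at an unadjusted p under 0.05, DESeq2 0 each time, blocked 1, 2 and 7 lower). Of all fitted genes 0.0466%, 3.06% and 9.69% passed at those times, and blocked 2.27%, 17.1% and 35.1%. The blocked counts at 3 and 12 h, of 23 fitted clock genes, are thus not above the share of all genes. The evening gene TOC1 stood at group means of 147 to 182 CPM and GI at 29 to 51.9 CPM, and neither passed in any of the 10 comparisons (TOC1 blocked 0.001 in zed1-D at 12 h, GI blocked 0.013 at 0 h and 5.5e-05 at 12 h between genotypes, and 0.042 at 3 h and 0.00053 at 48 h in WT). PRR7 fell at 48 h in WT (-1.27 ± 0.24, adjusted p = 0.017, without WT 48 h R1 0.16) and zed1-D (-0.99 ± 0.24, adjusted p = 0.014, without zed1-D 48 h R2 0.13). PRR5 rose in WT at 12 h (0.76 ± 0.16, adjusted p = 0.045, DESeq2 0.057, without WT 0 h R1 0.26) and 48 h (0.81 ± 0.16, adjusted p = 0.022, without WT 0 h R2 0.14) and in zed1-D at 48 h (0.64 ± 0.16, adjusted p = 0.016, without zed1-D 0 h R2 0.14).

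**Figure D5:**
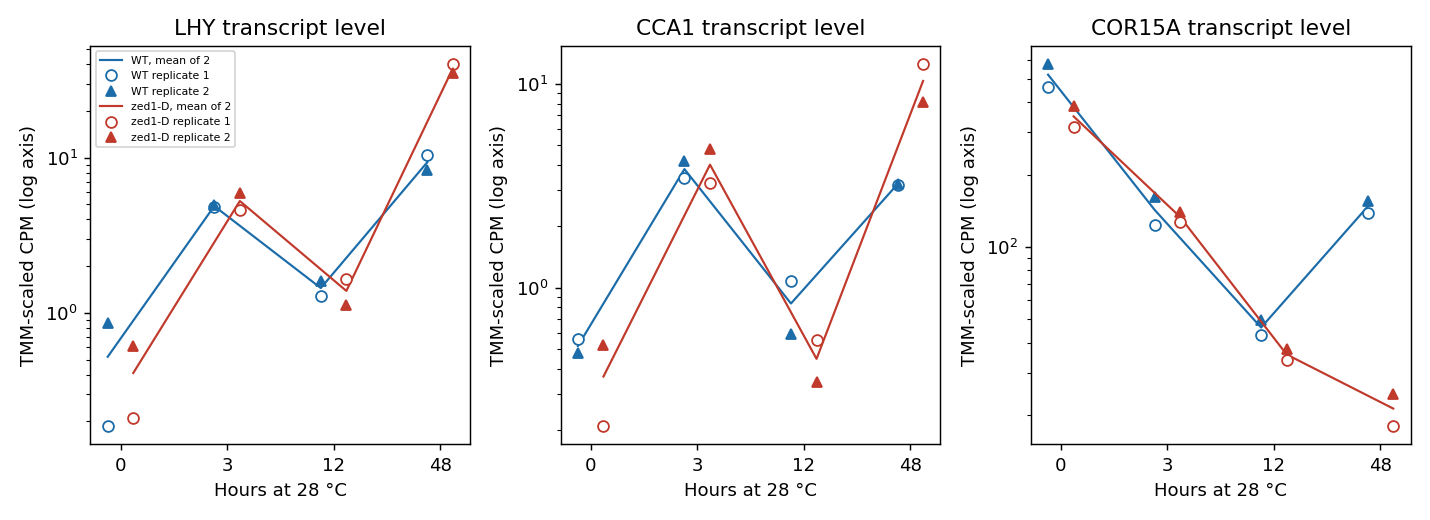
Levels of the clock genes LHY and CCA1 and the cold-response gene COR15A in each library, in TMM-scaled CPM on log axes, against hours at 28 °C on an evenly spaced axis; circles are replicate 1, triangles replicate 2, and lines join the means of 2. LHY rises from below 1 CPM at 0 h to 4.58 to 5.94 CPM at 3 h, and COR15A in zed1-D at 48 h lies at 18 and 24.6 CPM against 139 and 156 CPM in WT.

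Cold-response genes were read because GRP7 transcript is known to accumulate in the cold. Of 13 fitted, 6 were lower at 3 h, 5 at 12 h and 2 at 48 h in WT, where 1.78%, 1.51% and 2.97% of all fitted genes passed (blocked 11, 11 and 8 lower and 0, 0 and 2 higher). In zed1-D 3 were lower at 3 h, 7 at 12 h and 7 at 48 h, with 0, 1 (ZAT12) and 2 (ZAT12 and RD29B) higher, where 2.72%, 14.8% and 20% of all fitted genes passed (blocked 11, 10 and 10 lower and 1, 2 and 2 higher). These 2 genes are named for their direction, after their values were seen. Medians at 3 h were -1.71 in WT and -1.10 in zed1-D. COR15A, a chloroplast protectant that shares sequence with COR15B so that their counts are uncertain, went from 466 and 578 CPM to 124 and 162 CPM at 3 h in WT (log2 -1.87 ± 0.20 SE, adjusted p = 0.001), a smaller fold than in GRP7, and on to 42.9 and 49.7 CPM at 12 h (-3.49 ± 0.22, adjusted p = 1.5e-05), when GRP7 stood above its 3 h level. KIN2, whose counts are uncertain for the same reason beside KIN1, fell at 3 h in WT (-2.09 ± 0.22, adjusted p = 0.001) and zed1-D (-1.59 ± 0.22, adjusted p = 0.0034, without zed1-D 3 h R2 0.058).

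At 48 h 6 cold-response genes were lower and 2 higher in zed1-D than in WT, where 14.6% of all fitted genes passed (blocked 11 lower and 2 higher, against 45.6% of all genes). The 2 higher were ZAT12 (1.48 ± 0.44, adjusted p = 0.045, without zed1-D 48 h R2 0.42) and RD29B (2.06 ± 0.58, adjusted p = 0.04, DESeq2 0.15, without zed1-D 48 h R2 0.18). RD29B was at a low level there, 1.74 ± 0.0446 CPM in zed1-D and 0.355 ± 0.219 CPM in WT, so its fold rests on few reads. The median log2 difference of the list was -1.32 against -0.03 over all fitted genes. COR15A was lower (log2 -2.78 ± 0.21 SE, adjusted p = 1.1e-05), as was KIN2 (-2.61 ± 0.23, adjusted p = 2.8e-05), at the time when GRP7 was lower by 0.44 on the log2 scale. At 12 h 1 was lower and 1 higher (blocked 5 lower and 3 higher), where 9.69% of all fitted genes passed, and blocked 35.1%. At 0 and 3 h 0 passed (3 and 2 at an unadjusted p under 0.05, DESeq2 0 and 1, blocked 7 and 4 lower and 0 and 2 higher). Of all fitted genes 0.0466% and 3.06% passed at those times, and blocked 2.27% and 17.1%.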

How the data were processed

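The deposited files give, per library, counts of uniquely mapped reads per gene and RPKM values made by the authors, per the file headers. The counts summed to each header's total, and RPKM recomputed from counts, length and total differed by at most 5.9e-08 of its value. A gene missing from a file was taken as 0. The submitters' processing notes name the build TAIR10. Which aligner, counter and strandedness were used is not given in the sources used here. Sequences and positions come from RefSeq TAIR10.1 by locus tag, and the deposited files hold no coordinates. The members and gene lists were chosen with earlier results of these data known. All 83 related and 24 marker genes matched a RefSeq locus.

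Counts were fitted with edgeR 4.0.16 and limma 3.58.1 in R 4.3.3 (quasi-likelihood, TMM, default expression filter, 1 mean per group over 16 libraries, 8 residual degrees of freedom). P-values are two-sided, adjusted by Benjamini-Hochberg within each of 10 comparisons, with a threshold of 0.05. CPM is TMM-scaled. For likeness, a prior count of 2 entered log2 CPM. The procedure was also run on simulated counts, drawn without a deviation shared by same-numbered libraries. That run therefore does not cover the pairing seen in these data.

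Replicate numbers pair the libraries. Same-numbered libraries deviated together from their group means in all 28 pairs of groups (r = 0.53 to 0.71, median 0.65). The pairing comes from the titles and this check. The model without the block is reported, and the blocked one (7 residual degrees of freedom) is the alternative, with DESeq2 1.42.0, RLE scaling, no filter, total-count scaling, RPKM ratios and leaving out single libraries.

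Named genes are the pair, the 5 most like each, all family and GRP7-linked genes, CCA1, LHY, PRR7, PRR5, TOC1 and GI, and otherwise up to 4 passing genes per list and comparison with the smallest p. Of the GRP7-linked list, 1 gene is counted with the list while its own values are not reported here.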

Additional observations from a re-analysis of the deposited data

Results flagged for a closer look

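GRP7 and GRP8 had no pair of comparisons in which every library moved in opposite directions. Among 31 genes screened over 9 pairs of comparisons, GRP7 and GRP8 included, 17 combinations of gene and comparisons did. In each the difference between the effects was not tested. The share over all fitted genes is not given, so the 17 are a list of values and not a result about these genes. Groups of 2 libraries allow no check for a single distant library. Values are log2 changes.

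FLC differed between the genotypes by 0.20 at 0 h and by -1.34, -1.53 and -1.13 at 3, 12 and 48 h. Against 0 h it stood at 1.12, 1.00 and 0.90 in WT and at -0.42, -0.72 and -0.42 in zed1-D. EFR differed between the genotypes by -0.26 at 0 h and by 1.26, 1.13 and 0.63 at the later times. Against 0 h EFR stood at -1.05 (3 h) and -0.38 (12 h) in WT and at 0.47 and 1.01 in zed1-D. PR1 at 48 h stood at -0.78 in WT and 1.69 in zed1-D. CCA1 differed between the genotypes by -0.83 at 12 h, on 3 to 7 reads per library, and by 1.66 at 48 h. PRR5 differed by 0.18 at 0 h, -0.05 at 3 h and -0.14 at 12 h. RZ-1B differed by -0.10 at 12 h and 0.34 at 48 h. RZ-1C at 12 h stood at -0.28 in WT and 0.21 in zed1-D.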

How the results depend on the processing

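The 20 log2 values of GRP7 and GRP8 were recomputed under 180 alternatives. Of these, 176 moved by no more than the replicate spread, and 4, each with 1 library left out, moved by more. Leaving out 1 of 2 libraries shifts a group mean by no more than that spread, unless weighting or scaling also changes. For such omissions the count is therefore no check of the values, and a wider spread passes more easily. GRP7 at 48 h ran from -0.53 to -0.30 (zed1-D against WT) and from -1.0 to -0.77 (zed1-D against its 0 h), and GRP8 in zed1-D against WT from 0.11 to 0.66 at 3 h and -0.16 to 0.20 at 12 h. The sign changed in 9, all in genotype differences with overlapping libraries. Without single libraries GRP7 at 3 h kept to -3.09 to -2.80 in WT and -3.10 to -2.86 in zed1-D.

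With the replicate block, genes called rose to 438, 3304, 6783 and 8807 (zed1-D against WT at 0, 3, 12, 48 h), 3912, 4107 and 5675 (WT against 0 h) and 4608, 8485 and 10187 (zed1-D against 0 h). DESeq2 called 34 at 0 h between genotypes and 540 and 472 in WT at 3 and 12 h. Leaving out 1 library gave 0 to 3, 309 to 398, 939 to 1278 and 1417 to 1796 between genotypes, 110 to 120, 54 to 65 and 95 to 168 in WT, and 122 to 204, 1565 to 1884 and 1948 to 2812 in zed1-D.

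For lists, genes called in at least 1 genotype comparison with the block were 8 (glycine-rich), 8 (SR), 15 (clock), 13 (cold-response) and 7 (GRP7-linked). Over time they were 9 (glycine-rich), 16 (SR), 23 (clock) and 8 (GRP7-linked). The share of all fitted genes called in at least 1 comparison is not given. Blocked, it is at least the 45.6% (genotype) and 52.7% (time) reached in single comparisons, so these counts are not read as results about the lists. DESeq2 called 1 glycine-rich gene between genotypes and 2 over time. Without 1 library the genotype counts ran from 0 to 1 (glycine-rich; 1 without WT 3 h R2 or zed1-D 48 h R1), 0 to 1 (SR; 0 without either 48 h R1), 4 to 7 (clock; 4 without WT 48 h R1 or R2) and 5 to 8 (cold-response; 5 without zed1-D 48 h R1), and the time counts from 0 to 1 (glycine-rich) and 3 to 5 (SR; 3 without zed1-D 0 h R1). The single library then left in a group was assumed to vary like those of other groups.

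Of the 5 genes most like GRP7, 3 were shared over 16 libraries and 3 with the replicate block; for GRP8, 0 and 3. The causes were not tested. At the lower depth of R1, low-count genes such as LHY and CCA1 limit precision.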
